A study of Homo sapiens with 12 samples.

Results

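The integrin subunit genes measured here were ITGA2, ITGA3, ITGA5, ITGA6 and ITGAV, which encode α subunits, and ITGB1, ITGB3, ITGB4, ITGB5 and ITGB8, which encode β subunits. They were chosen by name, and all 10 were found among the 24331 features of the deposited expression table. The table came from RNA-sequencing of MDA-MB-231 cells, a human triple-negative breast cancer line of mesenchymal character. Wild-type cells (WT) were compared with ΔCRE cells, in which CRISPR/Cas9 had removed the NFAT and NF-κB binding sites of a core regulatory element in the promoter of ETS1, a transcription factor of the ETS family. Cells of each genotype were mock treated (0 h) or stimulated with PMA, a phorbol ester that activates protein kinase C, and Ionomycin, a calcium ionophore, for 6 or 24 h, with 2 biological replicates in each of the 6 groups and 12 libraries in all. No other agent or allele is given by the labels, and all groups share the same parental line. The number of ΔCRE clones behind the libraries is not stated in the sources used here, so an effect of the deletion cannot be told apart from a difference between clones. Values are FPKM, which divide fragments by the transcript's length and by the mapped total, and the depth of each library is unknown. In bulk RNA a lower share of cells expressing a gene and less RNA in each cell cannot be told apart.

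Integrins are transmembrane receptors made of an α and a β subunit, which link the extracellular matrix outside the cell to the actin cytoskeleton or to keratin filaments inside it. ITGB1 pairs with many α subunits, among them ITGA2 in a collagen receptor, ITGA3 and ITGA6 in laminin receptors and ITGA5 in the fibronectin receptor. ITGB4 pairs with ITGA6 in the laminin receptor of hemidesmosomes, the anchoring junctions of epithelial cells, while ITGAV pairs with ITGB1, ITGB3, ITGB5 and ITGB8 in receptors for vitronectin, fibronectin and latent TGF-β.

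Sequence around the start of transcription is shown for the 3 members that were higher in WT cells at 24 h than at 0 h, ITGA2, ITGA5 and ITGB5. Each sequence holds 300 bases, 250 before and 50 from the annotated start onward, and comes from RefSeq on GRCh38.p14. Entries were found for 7 of the 10 members, and ITGA3, ITGB3 and ITGB4 had none. Both strands were searched for TGANTCA (the AP-1 motif, AP-1 being a factor activated by phorbol esters), CCGGAA (an ETS core) and TGGAAA (an NFAT core), which do not overlap each other in these sequences. Capitals mark the matches. The ITGA2 sequence is chr5:52989102-52989401 on the plus strand, that of ITGA5 is chr12:54419217-54419516 on the minus strand and the most downstream of 3 ITGB5 entries is chr3:124887316-124887615 on the minus strand. That entry was taken because the deposited ITGB5 feature begins well inside the outermost annotated start of the gene.
ITGA2: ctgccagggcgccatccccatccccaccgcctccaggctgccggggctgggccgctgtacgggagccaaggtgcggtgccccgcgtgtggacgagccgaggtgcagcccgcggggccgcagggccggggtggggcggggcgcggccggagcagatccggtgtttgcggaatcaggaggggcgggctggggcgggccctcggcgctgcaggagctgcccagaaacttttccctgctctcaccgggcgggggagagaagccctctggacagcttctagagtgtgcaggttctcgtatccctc
ITGA5: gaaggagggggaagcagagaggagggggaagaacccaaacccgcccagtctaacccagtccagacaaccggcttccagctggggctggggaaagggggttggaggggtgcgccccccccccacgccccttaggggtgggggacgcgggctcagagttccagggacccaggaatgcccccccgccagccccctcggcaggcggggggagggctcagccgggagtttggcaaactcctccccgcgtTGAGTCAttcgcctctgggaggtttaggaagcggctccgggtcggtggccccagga
ITGB5: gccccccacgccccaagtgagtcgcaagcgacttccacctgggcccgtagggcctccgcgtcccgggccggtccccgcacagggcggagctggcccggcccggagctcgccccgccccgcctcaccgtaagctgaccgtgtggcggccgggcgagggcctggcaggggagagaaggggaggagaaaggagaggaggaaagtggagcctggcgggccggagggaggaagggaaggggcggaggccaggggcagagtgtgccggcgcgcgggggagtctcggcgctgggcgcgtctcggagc
The ITGA5 sequence held 1 AP-1 match, which began 6 bases before the start. The ITGA2 and ITGB5 sequences held no match to any of the 3 motifs. Of the other ITGB5 entries, the most upstream held 1 ETS match, on the opposite strand, 43 bases before its start, and the remaining entry held none. Over 35116 RefSeq sequences of the same length, 7.70% held the AP-1 motif, 17.2% the ETS core and 20.7% the NFAT core. These matches describe the letters in the window, and binding was not measured here.

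The libraries were first compared with the markers expected of the cell line. VIM was between 1543 and 2539 FPKM in 11 libraries and CDH1 was at most 0.0318 FPKM, while 3 of 6 markers listed as low or absent in this line (ERBB2, GATA3 and TFF1) had a mean of at least 1 FPKM. The library labelled ΔCRE 0 h replicate 1 stood apart. Its summed FPKM was 1423335, against 566255 to 651080 in the other 11, CDH1 was 52.3 FPKM, and 9 of 10 gut epithelium markers were at or above 1 FPKM, with a summed level of 7218 FPKM against 0.0593 to 0.915 in the others, in which 5 of the 10 were at 0 in every library. The summed level of 8 leukocyte and platelet markers was 40.7 FPKM there and 2.45 to 4.32 in the others, and that of 5 fibroblast markers was 54.3 FPKM there and 1.48 to 3.24 in the others. Its values are therefore shown apart, and ΔCRE cells at 0 h are represented by replicate 2 alone. ETS1, whose element was deleted, was 24.0 and 23.7 FPKM in WT at 0 h, 139.2 and 145.2 FPKM at 6 h and 36.2 and 39.7 FPKM at 24 h. ETS1 in ΔCRE cells was 16.5 FPKM at 0 h, 62.8 and 62.2 FPKM at 6 h and 29.3 and 30.7 FPKM at 24 h, below both WT libraries at each time.

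The files give 1 value for the whole of each gene. On hg19, ITGA2 lies at chr5:52285156-52390609 on the plus strand, ITGA5 at chr12:54789045-54813050 on the minus strand, ITGB4 at chr17:73717516-73753899 on the plus strand and ITGB5 at chr3:124481795-124606144 on the minus strand. ITGA3 (chr17:48133340-48167849) and ITGB3 (chr17:45331208-45390077) are on the plus strand of the chromosome that also carries ITGB4, and the ITGB3 locus overlaps a protein-coding readthrough gene on its own strand, so its reads may be split. ITGA6 (chr2:173292314-173371181) and ITGAV (chr2:187454790-187545628) lie on the plus strand of the same chromosome, ITGB1 at chr10:33189246-33247293 on the minus strand and ITGB8 at chr7:20370725-20455382 on the plus strand.

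In WT cells at 0 h the members spanned several orders of magnitude. ITGB1 was highest, at 265.1 and 294.7 FPKM. ITGA3 followed at 90.7 and 81.3 FPKM, then ITGB4 at 40.3 and 39.4 FPKM, ITGA6 at 31.5 and 33.9 FPKM and ITGB5 at 23.9 and 22.6 FPKM. The next in order were ITGA2, ITGA5 and ITGAV, whose neighbouring means differed by less than the larger SD of each pair. ITGB3, the β subunit of the vitronectin receptor and of the platelet fibrinogen receptor, was far lower at 2.43 and 2.38 FPKM. ITGB8, which pairs with ITGAV to activate latent TGF-β, stayed at or below 0.0959 FPKM in the 11 libraries. It did not reach the mean of 1 FPKM required for testing, so 9 of the 10 members were tested.

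The order changed with stimulation. ITGB1 and ITGA3 remained the highest in all 12 libraries. ITGA2 rose to the third place in WT at 6 and 24 h, while ITGB4 moved from the third place at 0 h to the eighth at both later times. In ΔCRE cells ITGB4 lay below ITGA6 and ITGB5 at 0 h and took the eighth place at 6 and 24 h. Neighbours in the order differed by more than the larger SD in WT at 6 and 24 h and in ΔCRE at 24 h, whereas ITGAV and ITGA6 did not in ΔCRE at 6 h.

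The WT time course asks how the members respond to PMA/Ionomycin. ITGA2, ITGA5 and ITGB5 rose and ITGB4 fell at both 6 and 24 h, whereas ITGA3 was higher and ITGA6 lower at 6 h without passing the test at 24 h. At 6 h against 0 h, 4 of 9 members tested were higher and 2 were lower at an adjusted p under 0.05, against 23.3% higher and 21.1% lower among the 11256 features tested. At 24 h against 0 h, 3 were higher and 1 was lower (26.5% and 28.2% of all features tested). At 24 h against 6 h, 3 were higher and 3 were lower (20.5% and 26.3%). These counts over 9 members stand beside the background and were not tested against it. Without WT 0 h replicate 1, 7 members passed at 24 h against 0 h, with ITGA3, ITGAV and ITGB1 added. The scaling moves the split of all calls. At 6 h against 0 h, 2620 features rose and 2373 fell, against 1894 and 3513 with FPKM rescaled to TPM, and at 24 h against 6 h 2303 rose and 2964 fell, against 3208 and 1780. The median absolute log2 fold change of the members was 0.47 at 6 h against 0 h, against 0.22 over all features tested, and 0.23 at 24 h against 0 h, against 0.27. All fold changes are on the scale of log2(FPKM + 1), which understates changes of low genes.

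ITGA2, the collagen-binding α subunit, had the largest increase of the members. It was 17.6 and 20.4 FPKM in WT at 0 h, 53.0 and 54.1 at 6 h and 68.8 and 75.0 at 24 h. The 3 groups did not overlap, and the mean at 24 h was 3.79 times that at 0 h. The log2 fold change was 1.45 ± 0.08 (SE) at 6 h (adjusted p = 3.26e-06) and 1.87 ± 0.08 at 24 h (adjusted p = 7.97e-07), and the further rise from 6 to 24 h of 0.42 ± 0.08 also passed the test.

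ITGA5, the α subunit of the fibronectin receptor, rose early and then stayed. It was 18.3 and 17.9 FPKM at 0 h, 49.2 and 46.1 at 6 h and 46.6 and 46.2 at 24 h. Both later groups lay above the 0 h libraries and overlapped each other. The log2 fold change was 1.35 ± 0.06 at 6 h (adjusted p = 9.13e-07) and 1.31 ± 0.06 at 24 h (adjusted p = 1.15e-06), and the change from 6 to 24 h was -0.04 ± 0.06.

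ITGB5, which forms a vitronectin receptor with ITGAV, rose mainly later. Its values were 23.9 and 22.6 FPKM at 0 h, 28.5 and 28.4 at 6 h and 44.9 and 43.3 at 24 h, with no overlap between the groups. The log2 fold change was 0.28 ± 0.06 at 6 h (adjusted p = 0.0051) and 0.90 ± 0.06 at 24 h (adjusted p = 7.65e-06). ITGAV itself did not follow it. ITGAV was 15.1 and 17.7 FPKM at 0 h, 19.8 and 19.5 at 6 h and 13.3 and 14.4 at 24 h. Neither later group passed the test against 0 h (adjusted p = 0.054 and 0.0625), and the fall from 6 to 24 h of -0.48 ± 0.09 did.

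ITGB4, the β subunit of the hemidesmosome, had the largest decrease. It was 40.3 and 39.4 FPKM at 0 h, 18.2 and 16.4 at 6 h and 9.998 and 10.2 at 24 h. The groups did not overlap, and the mean at 24 h was 0.254 times that at 0 h. The log2 fold change was -1.16 ± 0.07 at 6 h (adjusted p = 6.03e-06) and -1.88 ± 0.07 at 24 h (adjusted p = 4.01e-07). With 12 libraries in the fit the fall of ITGB4 at 6 h and the rise of ITGB5 at 6 h lost their call (adjusted p = 0.088 and 0.13). Their size could not change, since the added library is in neither group. ITGA6, the partner of ITGB4, took another course. It was 31.5 and 33.9 FPKM at 0 h, 22.03 and 21.4 at 6 h and 30.8 and 31.7 at 24 h. Both 6 h libraries thus lay below every other WT library, with a log2 fold change of -0.57 ± 0.07 against 0 h (adjusted p = 0.000232) and a return of 0.51 ± 0.07 from 6 to 24 h. The 24 h libraries overlapped those at 0 h, and the change against 0 h was -0.06 ± 0.07.

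ITGA3, an α subunit of laminin receptors, peaked at 6 h. It was 90.7 and 81.3 FPKM at 0 h, 123.8 and 115.4 at 6 h and 99.9 and 97.0 at 24 h. Every 6 h library lay above the others, the rise to 6 h was 0.47 ± 0.08 (adjusted p = 0.00136), and the later fall of -0.28 ± 0.08 passed the test (adjusted p = 0.017). Its 24 h level passed against 0 h with quantile normalization or TPM (adjusted p = 0.0092 and 0.018). With quantile normalization the later fall was -0.14 and lost its call (limma adjusted p = 0.086). The call of the later fall was lost without WT 6 h replicate 1, WT 24 h replicate 1 or WT 24 h replicate 2 (adjusted p = 0.104, 0.054 and 0.081). ITGB1, the shared partner, stayed within a narrow range. Its values were 265.1 and 294.7 FPKM at 0 h, 267.8 and 279.9 at 6 h and 239.6 and 256.2 at 24 h, and none of its 3 WT comparisons passed the test. ITGB3 was 2.43 and 2.38 FPKM at 0 h, 2.02 and 1.74 at 6 h and 2.30 and 2.61 at 24 h, and it passed none of them either. With TPM, ITGB3 was called lower at 6 h against 0 h (-0.37, limma adjusted p = 0.028). It was also called higher at 24 h against 6 h with TPM (0.39, limma adjusted p = 0.025) and without trend (0.26, limma adjusted p = 0.042).

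The make-up of the α subunits changed with these shifts. Of the summed FPKM of the 5 α subunits, ITGA2 took 10.1% and 11.9% in WT at 0 h, 19.8% and 21.1% at 6 h and 26.5% and 28.4% at 24 h. ITGA3 took 52.4% and 47.5% at 0 h and 38.5% and 36.7% at 24 h. The 5 α subunits together were 0.653 and 0.581 times the level of ITGB1 at 0 h and 1.08 and 1.03 times at 24 h. ITGB1 held 79.9% to 89.5% of the summed β subunits in the 11 libraries. The ratio of ITGB4 to ITGA6 was 1.28 and 1.16 in WT at 0 h, 0.824 and 0.767 at 6 h and 0.324 and 0.323 at 24 h. In ΔCRE cells this ratio was 0.733 at 0 h, 0.481 and 0.416 at 6 h and 0.172 and 0.143 at 24 h, so that at each time the ΔCRE libraries lay below both WT libraries. These shares and ratios are descriptions of RNA levels and were not tested, and they do not measure receptors at the cell surface.

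The comparison of ΔCRE with WT cells at the same time asks whether the members differ with the deletion. ITGB4 was lower in ΔCRE cells at all 3 times and ITGA5 was lower at 6 h, while no member was called higher in the main fit. At 0 h, 0 members were higher and 1 was lower, against 0.657% and 1.03% of all features tested. At 6 h, 0 were higher and 2 were lower (3.62% and 6.22%). At 24 h, 0 were higher and 1 was lower (2.35% and 3.97%), and without WT 0 h replicate 1 or replicate 2 the count was 2, with ITGA2 added. Of all features at 24 h, 265 lay above and 447 below WT, against 180 and 548 with TPM. At an unadjusted p under 0.05, 3, 2 and 6 of the 9 members differed at 0, 6 and 24 h, against 15.0%, 24.0% and 21.2% of all features tested.

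ITGB4 in ΔCRE cells was 20.4 FPKM at 0 h, 9.17 and 8.28 at 6 h and 5.06 and 4.71 at 24 h. At each time these values lay below both WT libraries, and the means were 51.2%, 50.5% and 48.3% of the WT means. The log2 fold change against WT was -0.93 ± 0.09 at 0 h (adjusted p = 0.00155), where ΔCRE is 1 library, -0.91 ± 0.07 at 6 h (adjusted p = 0.000254) and -0.92 ± 0.07 at 24 h (adjusted p = 0.00032). The library labelled ΔCRE 0 h replicate 1 held 51.3 FPKM, above every other library on the scale of the deposited FPKM. Its summed FPKM was 1423335, against 566255 to 651080 in the other 11, so that rank depends on the scale. The rescaling to TPM left this library out, so its direction against WT on that scale is not given. With that library in the group, the difference at 0 h was -0.29 (adjusted p = 0.524), and those at 6 and 24 h lost their call (adjusted p = 0.816 and 1). The size of the later differences could not change, since that library is in none of their groups. ITGB4 shares sequence on the opposite strand with GALK1, and the strand setting of the quantification is not given in the sources used here. Within ΔCRE cells ITGB4 fell by 1.14 on the log2 scale from 0 to 6 h and by 0.72 from 6 to 24 h. The difference between genotypes in these changes was 0.02 ± 0.11 and -0.01 ± 0.10.

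ITGA5 in ΔCRE cells was 16.8 FPKM at 0 h, 30.7 and 28.4 at 6 h and 40.5 and 37.9 at 24 h. At 6 h both ΔCRE libraries lay well below both WT libraries, the mean was 62.0% of WT and the log2 fold change was -0.67 ± 0.06 (adjusted p = 0.000504). With 12 libraries the difference lost its call (adjusted p = 0.0733), and its size could not change, since the added library is in neither group. At 24 h the ΔCRE libraries again lay below WT, at 84.4% of the WT mean, and the fold change of -0.24 ± 0.06 did not pass the test (adjusted p = 0.058), though it did with quantile normalization and with TPM (adjusted p = 0.033 and 0.025). Within ΔCRE cells ITGA5 rose from 6 to 24 h by 0.39 ± 0.06. The difference between genotypes in the change from 0 to 6 h was -0.57 ± 0.10 (adjusted p = 0.081) and in that from 6 to 24 h it was 0.43 ± 0.09 (adjusted p = 0.18), so neither passed the test across all features. With TPM the first of these was -0.59 (adjusted p = 0.043).

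The other members were close between genotypes or failed the test in the main fit. ITGA2 was 17.2 FPKM in ΔCRE at 0 h, 57.7 and 59.5 at 6 h and 86.0 and 94.5 at 24 h. At 6 and 24 h both ΔCRE libraries were above both WT libraries, with log2 fold changes of 0.13 ± 0.08 and 0.32 ± 0.08 (adjusted p = 0.39 and 0.053). ITGB5 was 27.3 FPKM at 0 h, 27.6 and 26.4 at 6 h and 51.0 and 47.1 at 24 h. Its ΔCRE libraries lay below WT at 6 h and above at 0 and 24 h, and none of these differences passed the test. ITGAV was 17.0 FPKM at 0 h, 20.0 and 23.2 at 6 h and 17.0 and 17.5 at 24 h. ITGB1 was 276.1 FPKM at 0 h, 286.9 and 309.6 at 6 h and 283.1 and 304.3 at 24 h. At 24 h both of these lay above WT in both libraries, with fold changes of 0.30 ± 0.09 for ITGAV and 0.24 ± 0.07 for ITGB1 (adjusted p = 0.10 and 0.095). With the replicate number as a block, ITGA2, ITGAV and ITGB1 were called higher in ΔCRE at 24 h (limma adjusted p = 0.0086, 0.031 and 0.0066). ITGA2 was also called at that time with a mean of at least 5 FPKM (limma adjusted p = 0.049).

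ITGA3 was 91.7 FPKM in ΔCRE at 0 h, 133.2 and 120.9 at 6 h and 110.3 and 102.1 at 24 h, with fold changes against WT between 0.08 and 0.11. ITGA6 was 27.9 FPKM at 0 h, 19.1 and 19.9 at 6 h and 29.5 and 32.8 at 24 h, so that ITGA6 in ΔCRE was under the lower WT value at 0 and 6 h (85.2% and 89.7% of the WT means) and overlapped WT at 24 h. None of these ITGA6 differences passed the test. ITGB3 was 2.76 FPKM at 0 h, 1.82 and 1.42 at 6 h and 3.06 and 2.98 at 24 h, with fold changes of 0.14 ± 0.12, -0.14 ± 0.10 and 0.22 ± 0.10. A p that misses the threshold does not show that these levels were equal.

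**Figure D1:**
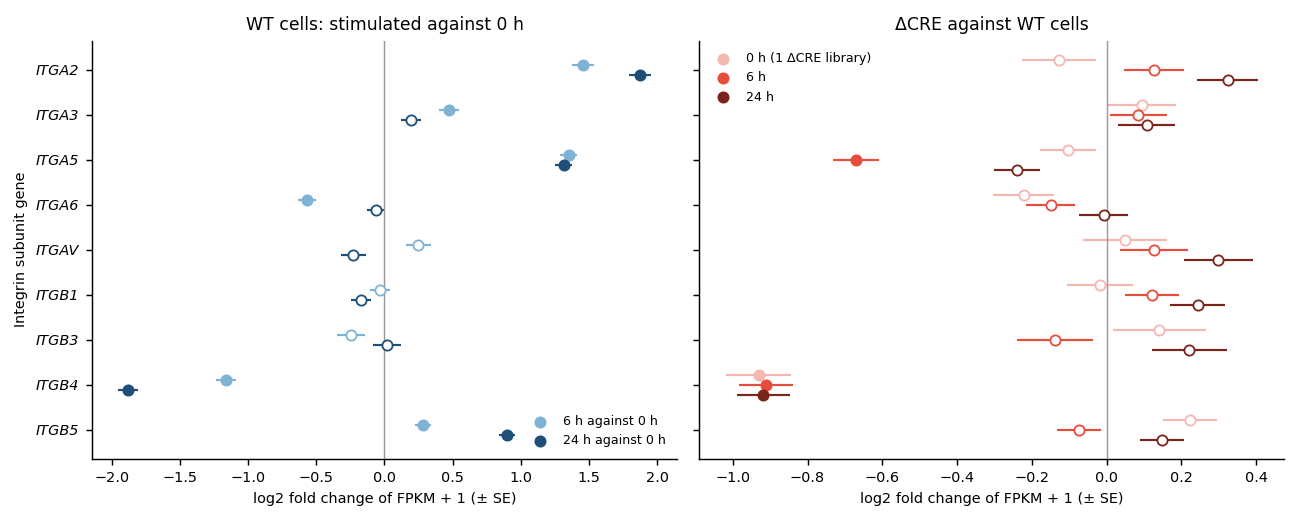
Log2 fold change of FPKM + 1 (± SE) of the 9 tested members, for WT cells at 6 and 24 h against 0 h (left) and ΔCRE against WT cells at each time (right). Filled points have an adjusted p under 0.05: ITGB4 lies near -0.92 at all 3 times on the right, and ITGA5 is filled there only at 6 h.

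Within ΔCRE cells ITGA2 and ITGA5 rose and ITGB4 fell in both intervals. From 0 to 6 h, where the 0 h group is 1 library, 3 members were higher (ITGA2, ITGA3 and ITGA5) and 3 were lower (ITGA6, ITGB3 and ITGB4), against 16.8% and 13.0% of all features tested. From 6 to 24 h, 5 were higher (ITGA2, ITGA5, ITGA6, ITGB3 and ITGB5) and 3 were lower (ITGA3, ITGAV and ITGB4), against 22.1% and 27.5%. With TPM the features called in ΔCRE from 0 to 6 h were 1201 higher and 2578 lower, against 1895 and 1464, and from 6 to 24 h 3219 higher and 2082 lower, against 2489 and 3097. The early fall of ITGB3 (-0.52 ± 0.12) became 0.21 with the library labelled ΔCRE 0 h replicate 1 in the group. The late falls of ITGA3 (-0.26 ± 0.08) and ITGAV (-0.30 ± 0.09) lost their calls without some single libraries or with another scaling. That of ITGA3 lost its call without ΔCRE 6 h replicate 1 or ΔCRE 24 h replicate 2 (adjusted p = 0.134 and 0.125). That of ITGAV lost it without ΔCRE 6 h replicate 2, ΔCRE 24 h replicate 1 or ΔCRE 24 h replicate 2 (adjusted p = 0.147, 0.094 and 0.066). With quantile normalization the late fall of ITGA3 was -0.09 and that of ITGAV -0.23, and neither was called (limma adjusted p = 0.23 and 0.059). With TPM the late fall of ITGAV was -0.21 and was not called (limma adjusted p = 0.177). ITGA2 rose by 1.71 ± 0.10 and then by 0.61 ± 0.08, and ITGB5 by 0.84 ± 0.06 from 6 to 24 h after a change of -0.01 ± 0.07. The test of the difference between genotypes called 0 of 9 members from 0 to 6 h (0.0800% higher and 0.187% lower over all features) and 0 of 9 from 6 to 24 h (0.142% and 0.0178%) by limma. At an unadjusted p under 0.05, 2 and 3 members differed, against 8.08% and 6.98% of all features tested. The changes before and after 6 h share the 6 h libraries, so their values are given side by side.

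**Figure D2:**
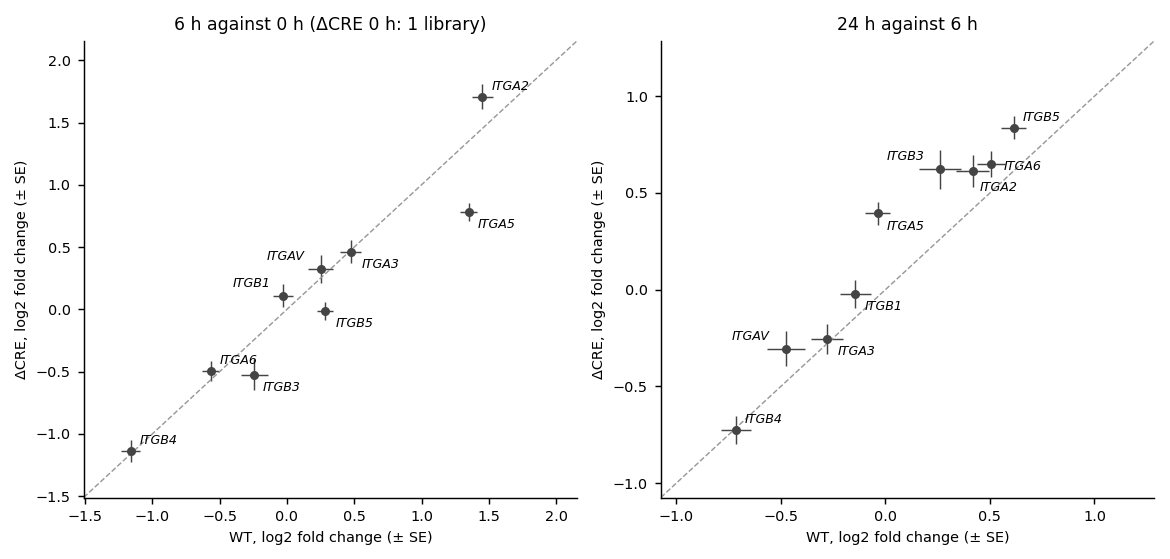
Log2 fold change (± SE) of the 9 tested members in ΔCRE cells (vertical axis) against that in WT cells (horizontal axis), from 0 to 6 h (left) and from 6 to 24 h (right), with the line of equal change dashed. ITGA5 lies below the line on the left (1.35 in WT, 0.78 in ΔCRE) and above it on the right (-0.04 and 0.39), and ITGB4 lies on it in both.

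Across the 11 libraries, Pearson's r of log2(FPKM + 1) described which members moved alike. The libraries share groups, so r is given as a description. It was 0.871 between ITGA2 and ITGA5 and 0.825 between ITGA6 and ITGB3, and -0.894 between ITGA2 and ITGB4 and -0.870 between ITGA3 and ITGA6. Of all features tested, the pattern of ITGA2 was most like those of PTGS2, the inducible cyclooxygenase (0.994), and SLC20A1, a phosphate transporter (0.991). That of ITGA5 was most like those of IL24, a cytokine (0.989), and IRF2 (0.988), and that of ITGB5 like those of PLIN3 (0.992) and ULK1 (0.990). For ITGB4 the closest were SHMT1 (0.984) and USP22 (0.983), and for ITGA3 GMPPB (0.989) and ST3GAL4 (0.980). For ITGA6 they were SH3KBP1 (0.980) and TANC2 (0.976), and for ITGAV PRRC1 (0.986) and SEL1L (0.983). ITGB1 was most like TMEM167A (0.955) and ZBTB41 (0.923), and ITGB3 like MADD (0.979) and TUBGCP4 (0.933).

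The other 17 integrin genes listed were mostly low. Of these 13 had a mean below 1 FPKM and reached at most 0.292 FPKM (ITGA10) in the 11 libraries. The 4 tested were ITGA1, whose feature also holds PELO, ITGAE, ITGB2 and ITGBL1, an integrin-like gene. ITGA1 was 19.7 and 20.9 FPKM in WT at 0 h and 30.5 and 30.1 at 24 h, a log2 fold change of 0.56 ± 0.07 (adjusted p = 0.000204). ITGBL1 was 8.88 and 8.67 FPKM in WT and 11.3 and 10.8 in ΔCRE at 6 h, and 6.45 and 6.32 in WT and 5.14 and 4.79 in ΔCRE at 24 h. It thus lay above WT at 6 h (0.30 ± 0.06, adjusted p = 0.0168) and below WT at 24 h (-0.31 ± 0.06, adjusted p = 0.0219). The ITGBL1 feature ends at chr13:103054124, past the annotated end of the gene at 102373206. It overlaps FGF14 on the opposite strand and, among others, FGF14-AS1 and FGF14-AS2 on its own strand. Their part in its values was not tested.

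Lists of genes that work with integrins were described beside the shares of all features tested that were higher and lower, and were not tested against them. Laminin-332 and the hemidesmosome were followed because they hold the ligand and the partners of ITGB4. Of 5 tested, WT cells had 4 higher and 0 lower at 6 h, with 3 higher and 2 lower by 24 h (23.3% and 21.1%, then 26.5% and 28.2%, of all features), and limma called 0 between genotypes at 6 or 24 h (1 and 0 at an unadjusted p under 0.05). LAMB3, a chain of laminin-332, went from a mean of 128.4 FPKM at 0 h to 390.8 at 6 h. The list held 7 genes, and LAMA3, another chain of laminin-332, and COL17A1 fell below the filter and were not tested. The mean of LAMA3 in WT was 0.614 FPKM at 0 h, 0.407 at 6 h and 1.42 at 24 h. That of COL17A1 was 0.344, 0.382 and 0.685 FPKM. PLEC, which links ITGB4 to keratin filaments, was lower at 24 h (-0.51 ± 0.07).

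Of 24 ligand genes tested, WT cells had 10 higher and 8 lower at 6 h, with 10 higher and 9 lower by 24 h, where all features gave 23.3% and 21.1%, then 26.5% and 28.2%. ICAM1, a ligand of leukocyte integrins, rose from 1.73 to 258.0 FPKM at 6 h, and FN1, fibronectin, the ligand of ITGA5 with ITGB1, rose from 32.6 to 126.8 FPKM at 24 h. CTGF fell by 1.23 on the log2 scale at 6 h and THBS1 by 1.53 at 24 h. Between genotypes, ΔCRE cells had 4 ligands above and 3 below WT at 6 h (3.62% and 6.22% of all features), among them TNC (-0.74), LTBP1 (-0.56) and L1CAM (0.38). At 24 h 5 lay above and 5 below (2.35% and 3.97%), among them CYR61 (-0.72), LAMB1 (0.68) and FN1 (0.59).

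Of 29 genes of the adhesion complex inside the cell, WT cells had 12 higher and 7 lower at 6 h, with 11 higher and 11 lower by 24 h (all features, 23.3% and 21.1%, then 26.5% and 28.2%). NEDD9, a docking protein, fell by 1.24 at 6 h and by 1.61 at 24 h on the log2 scale, and TNS4 fell by 1.07 at 6 h. VASP, an actin regulator, rose by 0.76 at 6 h and 0.83 at 24 h, and ILK by 0.65 at 24 h. In ΔCRE cells 1 was higher and 5 were lower than WT at 6 h (3.62% and 6.22% of all features), with TGFB1I1 (-0.49), TNS3 (-0.39) and FERMT1 (-0.37) the furthest apart. At 24 h 2 were higher and 0 were lower (2.35% and 3.97% of all features). The higher genes were VCL (0.50), which encodes vinculin, and FERMT2 (0.34). Of 19 tetraspanins and other surface regulators, WT cells had 9 higher and 1 lower at 6 h, with 8 higher and 3 lower by 24 h, beside the same shares of all features. PLAUR, the urokinase receptor, rose by 2.35 and CD82, a tetraspanin, by 1.33 at 6 h, and CAV1, caveolin, fell by 1.92 at 24 h. MMP14, a membrane-bound matrix protease, rose by 2.01 in WT at 24 h and was lower in ΔCRE than in WT at 6 h (-1.09 ± 0.08) and 24 h (-0.80 ± 0.08). CD9 was lower in ΔCRE at 6 h (-0.40) and PLAUR higher at 24 h (0.32).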

How the data were processed

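RNA-sequencing libraries of WT and ΔCRE MDA-MB-231 cells were prepared by the authors with a stranded mRNA kit, mapped to hg19 with TopHat and quantified with Cufflinks, and the deposited values are FPKM. The gene annotation and any scaling between libraries are not given in the sources used here, FPKM keeps no fragment counts, and no counting interval was computed. Groups and replicate numbers were taken from the sample labels. In the column names for the second replicates of ΔCRE at 6 and 0 h a digit replaces a letter, and they were matched to the only labels left.

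From the deposited FPKM, log2(FPKM + 1) was fitted with limma 3.58.1 in R 4.3.3 (lmFit, eBayes with trend) over 11 libraries and 6 groups, with Benjamini-Hochberg adjustment over the 11256 features with a mean of at least 1 FPKM. ΔCRE 0 h replicate 1 was left out, and the remaining ΔCRE 0 h library was assumed to vary like the other groups. For each feature, the p-value compares a difference with the spread between replicates, pooled over the groups and moderated across features. The lone ΔCRE 0 h library adds nothing to that spread. Where features shared a symbol, that with the highest mean was used. Named were all members, other integrins above the filter, the 3 largest called changes of each related list in 4 comparisons (WT at 6 and 24 h, ΔCRE against WT at 6 and 24 h), the 2 features most like each member, and ETS1. ITGA10, LAMA3 and COL17A1 were named after their values were seen. A gene that the rule would name is not reported here. The members and lists were chosen with earlier results of these data known. Alternatives tried were quantile normalization, TPM, a pseudocount of 0.1, no filter, a mean of at least 5 FPKM, no trend, 12 libraries, the replicate number as a block, a separate fit per time and leaving out each library.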

Additional observations from a re-analysis of the deposited data

Results flagged for a closer look

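ITGA6 (34.1 FPKM), ITGB4 (51.3 FPKM) and ITGB8 (0.536 FPKM) were higher in the library labelled ΔCRE 0 h replicate 1, left out of the comparisons, than in each of the other 11. The same held for 11 of the 17 other integrin genes, among them ITGB2, the β subunit of leukocyte integrins (15.3 FPKM), ITGAE (9.20 FPKM), ITGB7 (7.07 FPKM), ITGA7 (3.77 FPKM) and ITGAX (3.15 FPKM). Some of the 11 stayed under 1 FPKM there, such as ITGA4 (0.0816 FPKM) and ITGA9 (0.327 FPKM). The summed FPKM of that library was 1423335, against 566255 to 651080 in the others, so being highest there depends on the scale. The share of all features that were highest there was not computed. In the same library ITGB1 was 109.6 FPKM, ITGA5 14.2 FPKM, ITGA2 6.43 FPKM, ITGAV 5.25 FPKM and ITGB3 0.364 FPKM, below every other library. Markers of gut epithelium, leukocytes and fibroblasts were high there too, and their part in these levels was not tested.

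The change of ETS1 differed between genotypes by -0.667 ± 0.09 on the log2 scale from 0 to 6 h (limma adjusted p = 0.0291) and by 0.8436 ± 0.08 from 6 to 24 h (adjusted p = 0.0247). The change of ITGBL1 from 6 to 24 h differed by -0.6123 ± 0.08 (adjusted p = 0.0469). In all 3 cases both libraries of a group lay on the same side of the other genotype at 6 h.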

How the results depend on the processing

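Of the values of the 9 tested members under the alternatives, 1623 stayed on their side of the threshold, those that passed it also keeping their direction. Of the rest 39 newly passed it, 28 no longer passed it and 1 that had passed it reversed. Values that passed in neither fit were not compared for direction. The reversed value was ITGB3 in ΔCRE at 6 h against 0 h, which was 0.2065 with 12 libraries. With 12 libraries the number of members called was 2 for WT and 2 for ΔCRE at 24 h against 6 h, and 0 for ΔCRE against WT at 0, 6 and 24 h, with 17, 20 and 17 features called in all against 190, 1107 and 712. With 12 libraries, all features called were 857, 1221 and 582 in the WT comparisons (4993, 6151 and 5267 in the report) and 1011 and 845 in the ΔCRE ones (3359 and 5586). The spread of the ΔCRE 0 h group enters that fit. For ΔCRE against WT at 24 h, 2 members were called with a mean of at least 5 FPKM, with quantile normalization and with TPM. For the difference in change from 0 to 6 h, 1 was called with TPM. Leaving out single libraries gave 4 to 7 members for WT at 24 h against 0 h and 1 to 2 for ΔCRE against WT at 24 h, and at that time between 165 and 301 features in all when a library of the comparison itself was left out. At 6 h these were between 321 and 680, and a separate fit called 717 at 6 h and 324 at 24 h. TPM moved the median log2 fold change of all features at 6 h against 0 h to -0.12 in WT and -0.13 in ΔCRE. The difference in change from 6 to 24 h was called for 18 features, for 8 without trend, for 11 with quantile normalization and for 0 with 12 libraries, and that from 0 to 6 h for 30, for 47 with no filter and for 4 with 12 libraries.

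With the replicate number as a block, 7 members were called for WT at 24 h against 0 h, 2, 5 and 2 for ΔCRE against WT at 0, 24 and 6 h, and 1 for the difference in change from 0 to 6 h (ITGA5, -0.60, adjusted p = 0.015). All features called for ΔCRE against WT were then 655, 1805 and 1407 at 0, 6 and 24 h, and 72 for the difference from 0 to 6 h. Same-numbered WT and ΔCRE libraries deviated together with an r of 0.111, 0.0999 and 0.107 at 0, 6 and 24 h. The value at 0 h includes the library labelled ΔCRE 0 h replicate 1. Over the 10 pairs of groups without ΔCRE 0 h, r ran from -0.0676 to 0.202, so the numbers were not taken to pair the samples. The block nevertheless raised the number of features called in every comparison, as in WT at 6 h against 0 h (5929, against 4993 without it). Whether same-numbered libraries were handled together is not given by the labels and was not tested. FPKM keeps no depth, so what depth limits could not be computed.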
